A study of Mus musculus with 9 samples.

Results

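A set of transcripts in mouse colon stayed above the Control level both after dextran sulfate sodium (DSS) and after DSS followed by PAMK. They were selected on the array signal itself, and 150 of the 151603 probes with names beginning mclstr, on an array of 166924 probes, were chosen by that rule. A probe belonged if its DSS mean and its DSS+PAMK mean each lay at least 1.5 above the Control mean on the log2 scale. In addition, each of the 6 arrays of those groups had to exceed each of the 3 Control arrays and be well above background, the mark that the scanner software gives a spot clearly brighter than its surroundings. The threshold on the means was met by 274 probes, of which 220 had no overlap with Control and 150 were also well above background. The rule left out 4 probes by name, and 0 of these met it. Because the differences from Control chose the members, they are given as a description and nothing was read from them.

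The arrays measured colonic RNA of male C57BL/6J mice aged 10 weeks, with 3 mice in each of 3 groups and 1 array for each mouse. Control mice drank water without DSS and were given saline by gavage from day 8 to day 14. The DSS group had 3% DSS in its water for 7 days and then saline over the same days. DSS+PAMK mice had the same DSS and then 200 mg/kg of PAMK, a polysaccharide from the rhizome of Atractylodes macrocephala, by gavage over those days. The share of spots well above background was 72.2%, 63.9% and 66.0% on the Control arrays, 57.4%, 62.5% and 66.8% on the DSS arrays, and 55.4%, 55.7% and 67.3% on the DSS+PAMK arrays. The tissue label was checked on 2 epithelial genes, since Fcgbp, a protein of the mucus layer, had mean log2 signals of 14.36 in Control, 12.75 in DSS and 13.83 in DSS+PAMK, and Slc26a3, a chloride and bicarbonate exchanger of colonocytes, had 13.01, 12.58 and 13.69. Both epithelial genes were bright on all 9 arrays. Slide 1 held the Control arrays and DSS replicate 1, slide 2 held DSS replicates 2 and 3 with DSS+PAMK replicates 1 and 2, and slide 3 held DSS+PAMK replicate 3. As Control and DSS+PAMK arrays shared 0 slides, their comparison could be separated from slide only through the DSS arrays on slides 1 and 2.

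DSS injures the lining of the colon, and leukocytes enter the injured wall from the blood. Monocytes follow chemokines by way of the receptor Ccr2, mast cells reside in the mucosa and carry receptors for IgE and granules with proteases, and stromal cells and phagocytes release matrix metalloproteinases and nitric oxide.

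Of the 150 members, 9 carried a gene symbol in the supplementary sheets of the study, for 8 genes, and 141 had a probe name only. The sheets pair 179 probes of the array with 172 symbols, and they list genes that the authors selected on these same arrays. A named member is therefore not independent evidence of any direction. The probes of the 8 genes are shown because each value that follows was read from these bases. They are 60 bases long, and for Ms4a2, Ipcef1 and the Ccr2 probe mclstr_5131_3337_8 only the first 30 bases are shown, in lower case throughout.
Ms4a2: cacagttactctatcacggtagtaaactgt
Cpa3: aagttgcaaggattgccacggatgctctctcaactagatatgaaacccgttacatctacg
Ccr2, mclstr_5131_3337_8: tgaacaatagagacctttaaatcaggtgcc
Ccr2, mclstr_39376_385_10: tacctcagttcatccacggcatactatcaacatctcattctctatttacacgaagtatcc
Lair1: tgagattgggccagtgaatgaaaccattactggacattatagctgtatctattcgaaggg
Nos2: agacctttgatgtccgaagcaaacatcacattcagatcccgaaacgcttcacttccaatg
Mmp3: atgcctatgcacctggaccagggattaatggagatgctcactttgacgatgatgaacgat
Fer1l4: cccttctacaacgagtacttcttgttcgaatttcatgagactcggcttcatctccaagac
Ipcef1: tttgaggagaggtactctgccgatgtaagc

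The members' differences from Control ran from 1.52 to 5.43 in the DSS group, with a median of 2.07, and from 1.5 to 4.59 in the DSS+PAMK group, with a median of 1.87. The smaller of both differences was at least 2 in 38 members, at least 2.5 in 9 and at least 3 in 6. A difference of at least 3 was found in 28 members in DSS and in 8 in DSS+PAMK. These values include 15 members not well above background in Control, whose differences are not exact. With these 15 set to the lower bounds described for Ms4a2, the medians were 2.02 and 1.82, the smaller difference was at least 1.5 in 139 members, at least 2 in 31, at least 2.5 in 7 and at least 3 in 4, and a difference of at least 3 was found in 24 in DSS and 6 in DSS+PAMK. With limma, at the threshold of the methods (a difference of 2-fold or more with p before adjustment no higher than 0.05), 149 members were higher in DSS than in Control, where 1.98% of the 99612 tested probes were, and 148 were higher in DSS+PAMK than in Control, where 1.65% were. After Benjamini-Hochberg adjustment, limma called 35 members (23.3%) between DSS and Control, against 0.176% of all tested probes. Between DSS+PAMK and Control it called 0 members and 0% of all tested probes, with a smallest adjusted p from limma of 0.1. The rule used both contrasts, so nothing was read from these counts. Just inside the threshold lay mclstr_18148_3055_14, with differences of 3.05 in DSS and 1.5 in DSS+PAMK, and mclstr_16729_386_7, with 1.62 and 1.51. Just outside lay mclstr_86465_920_22, with 1.66 and 1.5 and a smaller difference of 1.499, and mclstr_137797_106_15, with 1.5 and 1.68 and a smaller difference of 1.497.

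How many probes met the rule depended on a single Control array and on the processing. Leaving out Control replicate 2 gave 350 members in place of 150, and leaving out any 1 of the other 8 arrays gave between 125 and 217. With arrays aligned by their 75th percentiles, and not by quantiles, 66 probes met the rule, 56 of them among the 150 and 132 of the 150 still without overlap with Control. Of the 9 probes with a symbol, 3 met it (Ms4a2, Cpa3 and Ccr2 mclstr_5131_3337_8). The DSS+PAMK difference from Control was then 1.42 for Ccr2 mclstr_39376_385_10, 1.38 for Mmp3, 1.23 for Ipcef1, 1.11 for Nos2 and 1.09 for Lair1, under the threshold, and Fer1l4, at 1.62, missed through overlap with Control. That shift moved the median difference from Control over all tested probes to -0.11 in DSS and -0.10 in DSS+PAMK. With background corrected by normexp, which adds 50 to every signal as its offset, 4 probes met the rule and 0 of these had a symbol. Under that correction the members' median differences were 0.73 in DSS and 0.62 in DSS+PAMK, and 148 of the 150 still had no overlap with Control. Each of the 150 members lay above Control in both groups under both alternatives, although the choice of members favors that direction. The rule also chose members without overlap with Control. The counts without overlap were not set beside all tested probes, and nothing was read from them.

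**Figure D1:**
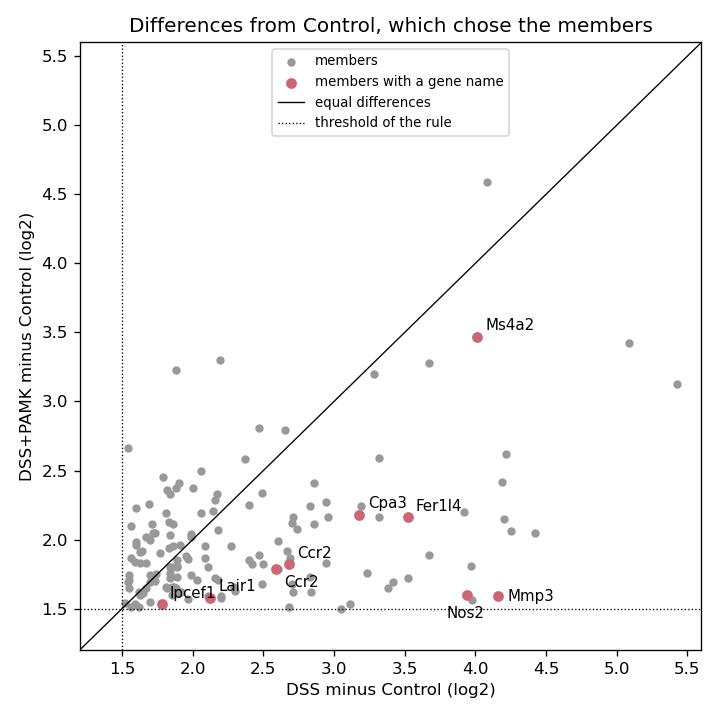
Difference from the Control mean in DSS (horizontal axis, log2) and in DSS+PAMK (vertical axis, log2) for the 150 members, with 1 point per probe and the 9 probes with a symbol in red. The dotted lines mark the threshold of 1.5 that chose the members, the solid line marks equal differences, and 99 members lie below it.

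Both mast cell genes that could be traced were members. Ms4a2 encodes the beta chain of the high-affinity IgE receptor of mast cells and basophils. Its log2 signals were 1.2, 1.30 and 1.30 in Control, 4.82, 5.22 and 5.79 in DSS, and 4.57, 4.38 and 5.24 in DSS+PAMK, with means of 1.26 ± 0.05, 5.28 ± 0.49 and 4.73 ± 0.45 (SD, n = 3). On the Control arrays the probe was not well above background, on the 6 others it was, and the DSS and DSS+PAMK arrays overlapped. A fold against such a group is given as a bound, from the bright group's mean and the dim group's mean after each of its arrays was set to the dimmest signal that was still well above background there, unless the probe itself was brighter. Ms4a2 was at least 4.56-fold higher in DSS and at least 3.13-fold higher in DSS+PAMK than in Control. Its DSS+PAMK mean differed from its DSS mean by -0.54 (SE 0.29, 95% interval -1.2 to 0.11, adjusted p from limma 0.708). The interval holds 0. With each array left out in turn the difference lay between -0.80 and -0.29, the latter without DSS replicate 3, and within slide 2 it was -1.03 and passed the threshold of the methods.

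Cpa3 encodes the carboxypeptidase of mast cell granules. Its log2 signals were 5.02, 3.50 and 4.38 in Control, 7.58, 7.43 and 7.44 in DSS, and 6.25, 6.66 and 6.54 in DSS+PAMK, with means of 4.30 ± 0.77, 7.48 ± 0.09 and 6.48 ± 0.21 (SD, n = 3). The DSS arrays lay close together, and every DSS+PAMK array lay between the Control and the DSS arrays. Against Control the folds were 9.09 in DSS and 4.54 in DSS+PAMK. The difference between DSS+PAMK and DSS was -1.0 (SE 0.34, 95% interval -1.77 to -0.23), which passed the threshold of the methods but not adjustment (adjusted p from limma 0.666). In some settings this difference no longer passed. Only the fold fell short within slide 2 (-0.98), without DSS replicate 1 (-0.95) and with the normexp correction (-0.68). There the unadjusted p from limma was 0.00666, 0.0394 and 0.000104. Fold and p both fell short without DSS+PAMK replicate 1 (-0.88, unadjusted p from limma 0.0539) and with slide as a fixed block (-0.98, unadjusted p from limma 0.0748). The mast cell list held 16 genes, of which 2 had a probe with a symbol, and the other genes of that list had none. The log2 of its summed signal over both probes, of which Ms4a2 was not well above background in Control, was 5.12, 3.78 and 4.54 in Control, 7.78, 7.71 and 7.84 in DSS, and 6.65, 6.93 and 7.03 in DSS+PAMK. In bulk tissue, more cells of a type and more RNA in each cell cannot be told apart.

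Monocyte and macrophage genes gave 3 members. Ccr2, the receptor that draws monocytes from the marrow into inflamed tissue, was read by 2 probes, and both were members. Probe mclstr_5131_3337_8 had log2 signals of 5.34, 5.07 and 5.14 in Control, 8.27, 7.76 and 7.55 in DSS, and 6.79, 7.55 and 6.66 in DSS+PAMK, with means of 5.18 ± 0.14, 7.86 ± 0.37 and 7.00 ± 0.48 (SD, n = 3). Probe mclstr_39376_385_10 had 3.83, 4.18 and 4.07 in Control, 6.89, 6.65 and 6.32 in DSS, and 5.80, 6.57 and 5.08 in DSS+PAMK, with means of 4.02 ± 0.18, 6.62 ± 0.29 and 5.82 ± 0.74 (SD, n = 3). On both probes DSS+PAMK replicate 2 reached into or up to the range of the DSS arrays, and the other 2 arrays of its group lay below it. Folds against Control were 6.39 in DSS and 3.52 in DSS+PAMK on the former probe, and 6.04 and 3.46 on the latter. The DSS+PAMK mean differed from the DSS mean by -0.86 (SE 0.27, 95% interval -1.48 to -0.24, adjusted p from limma 0.664) and by -0.80 (SE 0.34, adjusted p from limma 0.690), both short of a fold change of 2. Within slide 2 these differences were -0.49 and -0.30. Without DSS+PAMK replicate 2 they were -1.13 and -1.16, and both passed the threshold of the methods, as did the former probe without DSS replicate 3 (-1.01). In the other direction, the former was -0.66 without DSS replicate 1 and the latter -0.43 without DSS+PAMK replicate 3. The 2 probes read the same gene and do not count as separate evidence.

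Lair1, a collagen receptor that inhibits leukocytes, had log2 signals of 3.48, 3.10 and 3.56 in Control, 5.56, 5.62 and 5.34 in DSS, and 5.15, 5.19 and 4.54 in DSS+PAMK, with means of 3.38 ± 0.24, 5.51 ± 0.14 and 4.96 ± 0.37 (SD, n = 3). Its groups had no overlap, with DSS+PAMK between Control and DSS, and 2 of the Control arrays were well above background. The folds were 4.36 in DSS and 2.98 in DSS+PAMK against Control, and they rest partly on a dim Control signal. DSS+PAMK differed from DSS by -0.55 (SE 0.22, 95% interval -1.04 to -0.05, adjusted p from limma 0.679), short of a fold change of 2, by -0.31 within slide 2 and by -0.33 without DSS+PAMK replicate 3.

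The largest differences between the treated groups among the named members were those of Mmp3 and Nos2. Mmp3 encodes stromelysin, a matrix metalloproteinase, and its log2 signals were 4.77, 4.90 and 5.22 in Control, 9.24, 10.13 and 7.99 in DSS, and 6.52, 7.18 and 5.94 in DSS+PAMK, with means of 4.96 ± 0.23, 9.12 ± 1.08 and 6.55 ± 0.62 (SD, n = 3). All DSS+PAMK arrays lay below all DSS arrays and above all Control arrays. The folds against Control were 17.8 in DSS and 3.00 in DSS+PAMK. The difference between the treated groups was -2.57 (SE 0.51, 95% interval -3.74 to -1.40), which passed the threshold of the methods but not adjustment (adjusted p from limma 0.660). Within slide 2 it was -2.20, and it passed the unadjusted threshold there and with each array left out in turn.

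Nos2, the inducible nitric oxide synthase, had log2 signals of 4.03, 3.73 and 2.52 in Control, 8.28, 7.33 and 6.49 in DSS, and 4.44, 6.24 and 4.40 in DSS+PAMK, with means of 3.43 ± 0.80, 7.37 ± 0.89 and 5.02 ± 1.05 (SD, n = 3). Replicates 1 and 3 of DSS+PAMK lay just above the highest Control array, and replicate 2 lay just below the lowest DSS array. The folds against Control were 15.3 in DSS and 3.02 in DSS+PAMK. Only 2 of the Control arrays were well above background, so these folds rest partly on a dim signal and are not exact. The difference between the treated groups was -2.34 (SE 0.64, 95% interval -3.81 to -0.88), which passed the threshold of the methods but not adjustment (adjusted p from limma 0.660). Within slide 2 it was -1.57 and no longer passed.

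Fer1l4, a member of the ferlin family, had log2 signals of 1.45, 1.44 and 3.97 in Control, 6.03, 6.31 and 5.08 in DSS, and 4.51, 4.08 and 4.76 in DSS+PAMK, with means of 2.29 ± 1.46, 5.81 ± 0.64 and 4.45 ± 0.34 (SD, n = 3). Control replicate 3, the only Control array well above background for this probe, nearly reached the DSS+PAMK range, and the DSS+PAMK arrays lay below the DSS arrays. The difference between the treated groups was -1.36 (SE 0.66, 95% interval -2.86 to 0.14, adjusted p from limma 0.703) and did not pass. It passed the threshold of the methods within slide 2 (-1.40), without Control replicate 3 (-1.36), without DSS replicate 3 (-1.72), with the shift to the 75th percentile (-1.52), by the methods' t-test and with the treated groups alone in the fit. With slide as a fixed block (-1.40), the normexp correction (-0.51) or any 1 of the other 7 arrays left out it did not pass, and the smallest of these left-out values was -1.10, without DSS replicate 2. Ipcef1, whose product binds exchange factors of the cytohesin family, had 4.47, 4.70 and 4.23 in Control, 6.22, 6.33 and 6.18 in DSS, and 6.05, 6.33 and 5.59 in DSS+PAMK, with means of 4.46 ± 0.23, 6.25 ± 0.08 and 5.99 ± 0.37 (SD, n = 3). Of the named members it had the smallest difference between DSS+PAMK and DSS, -0.25 (SE 0.21, 95% interval -0.74 to 0.23, adjusted p from limma 0.785), with -0.06 within slide 2, -0.05 without DSS+PAMK replicate 3 and -0.42 without DSS+PAMK replicate 2. Its DSS and DSS+PAMK arrays overlapped. With the normexp correction the difference was also smaller for Ms4a2 (-0.18), Lair1 (-0.18), Ipcef1 (-0.12), both Ccr2 probes (-0.61 and -0.41), Nos2 (-1.28) and Mmp3 (-2.01), and of these Nos2 and Mmp3 passed the threshold of the methods.

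**Figure D2:**
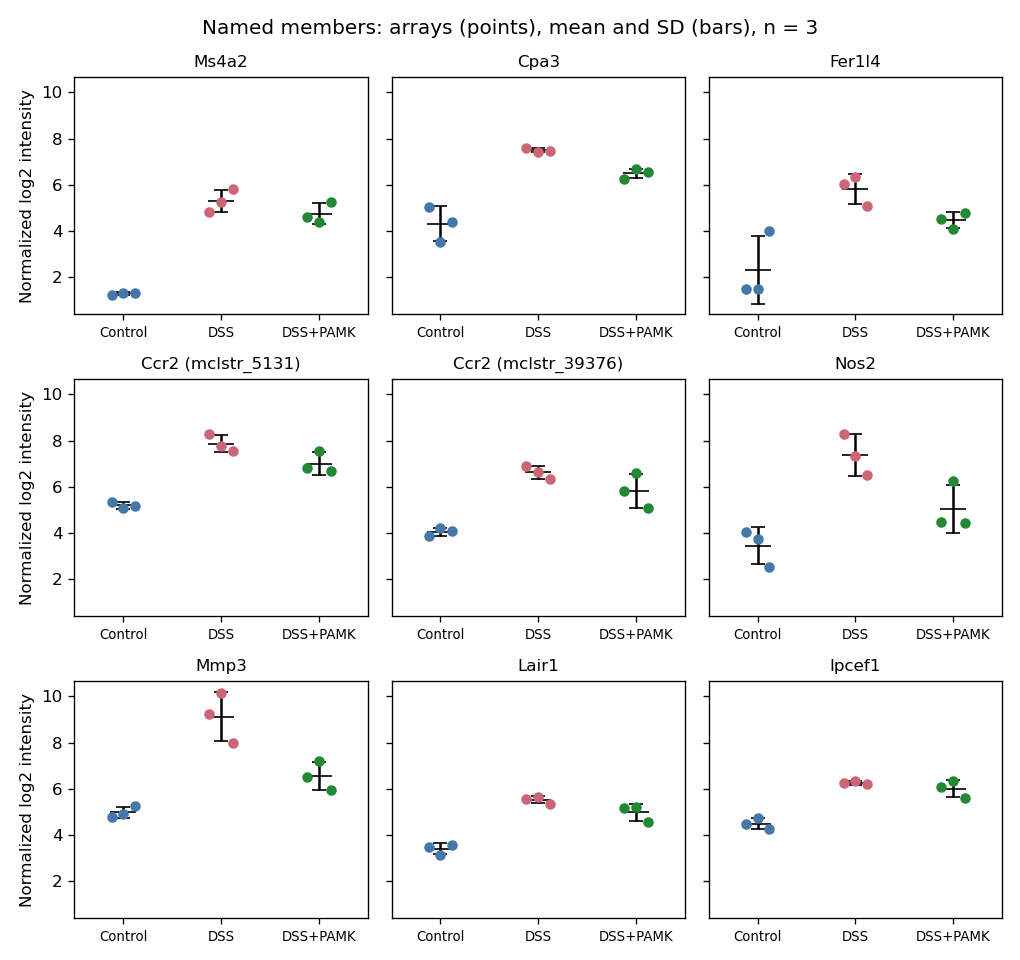
Normalized log2 intensity (vertical axis) of the 9 members with a gene symbol, by group (horizontal axis), with 1 point per array and bars for the mean and SD of 3 arrays. The DSS+PAMK means lie between the Control and DSS means for all 9 probes, with differences from DSS that run from -2.57 for Mmp3 to -0.25 for Ipcef1.

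The 5 members without a symbol that had the greatest smaller-of-both difference as measured were chosen by rule. Their order is not exact where Control arrays were not well above background. Outside the 5, mclstr_62388_1281_10 had 3 Control arrays well above background and folds of 18.6 in DSS and 6.14 in DSS+PAMK. The latter fold exceeds the bound of 5.70-fold given below for mclstr_126017_335_14, so the order of these probes was not settled. Probe mclstr_46352_1799_10 had log2 signals of 1.19, 4.85 and 1.19 in Control, 7.55, 6.75 and 5.18 in DSS, and 7.15, 7.98 and 5.86 in DSS+PAMK. Its Control replicate 2, the only one well above background, stood far above the other Control arrays, and DSS+PAMK differed from DSS by 0.51. Probe mclstr_126017_335_14 had 1.30, 2.33 and 2.92 in Control, 8.03, 7.5 and 6.28 in DSS, and 5.29, 6.57 and 4.94 in DSS+PAMK. It was at least 18.2-fold higher in DSS and at least 5.70-fold higher in DSS+PAMK than in Control, which was not well above background, and its difference between the treated groups, -1.67, passed the threshold of the methods. That call was lost without DSS replicate 1 (-1.29), DSS replicate 2 (-1.55), DSS+PAMK replicate 1 (-1.5) or DSS+PAMK replicate 3 (-1.34), within slide 2 (-0.96), with the normexp correction (-0.99) and by the methods' t-test. Probe mclstr_98269_437_18 had 2.79, 2.25 and 3.33 in Control, 5.76, 6.33 and 7.28 in DSS, and 5.92, 5.43 and 6.86 in DSS+PAMK, with overlapping treated groups and a difference of -0.39. Within slide 2 it was -1.13 and passed the threshold, and without DSS replicate 3 it was 0.02. For mclstr_46352_1799_10 the difference was 1.6 within slide 2 and with slide as a fixed block, -0.15 without DSS replicate 3, 0.01 without DSS+PAMK replicate 2 and up to 1.07 with another array left out, and in none of these did it pass the threshold.

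Probe mclstr_5203_1581_5 had log2 signals of 3.19, 6.30 and 3.41 in Control, 8.53, 7.76 and 6.45 in DSS, and 7.44, 8.02 and 7.03 in DSS+PAMK. Its Control replicate 2 lay just under the lowest DSS array, and the treated groups, which overlapped, differed by -0.08. The sign of that difference depended on the slides and on single arrays, since it was 0.63 within slide 2 and between -0.64 and 0.39 with each array left out in turn. Probe mclstr_59513_247_14 had 1.32, 3.49 and 2.92 in Control, 8.68, 9.08 and 6.26 in DSS, and 5.09, 7.10 and 4.93 in DSS+PAMK. Its treated groups overlapped through DSS replicate 3 and DSS+PAMK replicate 2, and their difference, -2.30, passed the threshold of the methods. That call was lost without DSS replicate 1 (-1.96), DSS replicate 2 (-1.76), DSS+PAMK replicate 1 (-1.97) or DSS+PAMK replicate 3 (-1.92), within slide 2 (-1.58) and by the methods' t-test.

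Between DSS+PAMK and DSS, a contrast the rule did not use directly, the rule still set a lower limit on both means against Control. After Benjamini-Hochberg adjustment, limma called 0 of the 150 members and 0% of all tested probes, with a smallest adjusted p of 0.660 among members and 0.628 overall. At an unadjusted p of at most 0.05 whatever the fold, it called 34 members (22.7%), against 7.22% of all tested probes. The methods' t-test called 6 members (4%) lower, against 0.538% of all tested probes, and 3 (2%) higher, against 0.485%, at the threshold of the methods and 0 after adjustment. By limma at that threshold, 24 members (16%) were lower in DSS+PAMK, against 1.06% of all tested probes, and 2 (1.33%) were higher, against 0.643%. Within slide 2, 4 members (2.67%) were lower, against 1.07% of all tested probes, and 8 (5.33%) were higher, against 1.2%. With slide as a fixed block, 4 (2.67%) were lower, against 1% of all tested probes, and 3 (2%) were higher, against 0.982%, while with slide as a random block 23 were lower, against 1.04%, and 2 higher, against 0.643%. Only slide 2 holds both treated groups, so the fixed block takes the difference from that slide alone and is not a separate check on it. Single arrays moved the lower count between 13 and 33. It was 13 without DSS replicate 1 (1.05% of all tested probes), 15 without DSS replicate 2 (2.63%), 14 without DSS+PAMK replicate 1 (0.857%), and 16 without DSS+PAMK replicate 3 (1.2%). It was 33 without DSS replicate 3 (1.17%) and 27 without DSS+PAMK replicate 2 (1.06%). The higher count was 1 in the first 3 of these settings (0.857%, 1.19% and 0.569% of all tested probes), 3 without DSS+PAMK replicate 3 (0.679%), and 0 without DSS replicate 3 (0.911%) or DSS+PAMK replicate 2 (0.833%). It was 3 without Control replicate 2 (0.809%).

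All DSS+PAMK arrays lay below all DSS arrays in 20 members (13.3%), against 6.53% of all tested probes, and above them in 4 (2.67%), against 9.45%. The DSS+PAMK mean was the lower one in 99 members (66.0%), against 46.7% of all tested probes, and it was at or above the DSS mean in 51. Means within 0.5 of each other were found in 85 members (56.7%), against 84.3% of all tested probes. The members' median difference was -0.15, with quartiles of -0.72 and 0.14 and a range from -2.57 to 1.35, while over all tested probes it was 0.02, with quartiles of -0.18 and 0.23. The members' differences were also less precise, with a median SE of 0.45 against 0.25 over all tested probes, and a median half-width of the 95% interval of 1.03 against 0.57. Within slide 2, which holds 2 arrays of each treated group, the median was 0 over members and 0.01 over all tested probes, and 76 members (50.7%) were lower in DSS+PAMK, against 48.6% of all tested probes. Both DSS+PAMK arrays of that slide lay below both DSS arrays in 28 members (18.7%), against 18.2% of all tested probes, and above both in 28 (18.7%), against 22%. Within slide 2 these shares were thus near those of all tested probes.

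**Figure D3:**
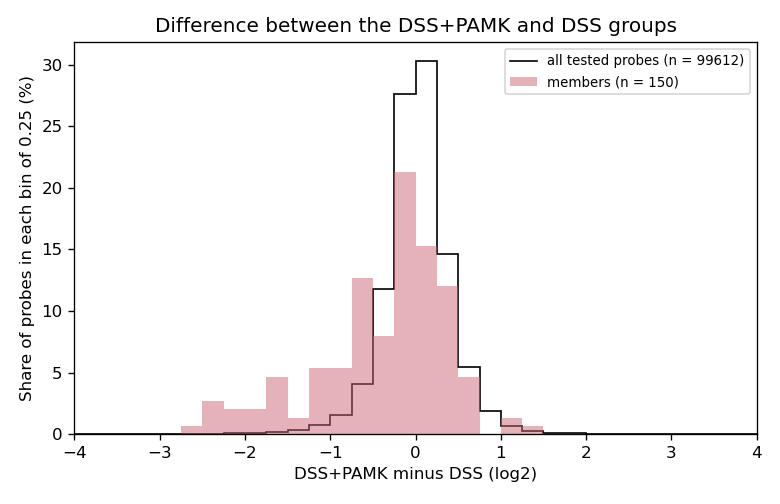
Share of probes (vertical axis, percent) by the difference of DSS+PAMK minus DSS (horizontal axis, log2, bins of 0.25), for the 150 members (red) and all 99612 tested probes (black line). Members spread more widely and toward negative values, with a median of -0.15 against 0.02.

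The 2 members that passed the threshold upward are named here after their values were seen. Probe mclstr_100650_627_16 had log2 signals of 1.32, 3.75 and 1.41 in Control, 3.94, 4.02 and 4.16 in DSS, and 5.51, 5.69 and 4.97 in DSS+PAMK. Probe mclstr_68425_1224_16 had 2.96, 3.93 and 3.43 in Control, 5.37, 5 and 4.58 in DSS, and 6.14, 6.48 and 5.70 in DSS+PAMK. On both, every DSS+PAMK array lay above every DSS array. They differed from DSS by 1.35 (adjusted p from limma 0.690) and 1.12 (adjusted p from limma 0.660), and so neither passed adjustment. The former passed within slide 2 (1.51), with the treated groups alone in the fit, by the methods' t-test and without any 1 Control array, but not with slide as a fixed block or without the filter on dim probes. With any 1 of DSS replicates 1, 2 and 3 or DSS+PAMK replicates 1 and 2 left out, the former lay between 1.2 and 1.42 and did not pass the threshold of the methods, and the latter did not pass without DSS replicate 3 (0.92) or DSS+PAMK replicate 2 (0.93). With the normexp correction they were 0.43 and 0.48, and neither passed.

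**Figure D4:**
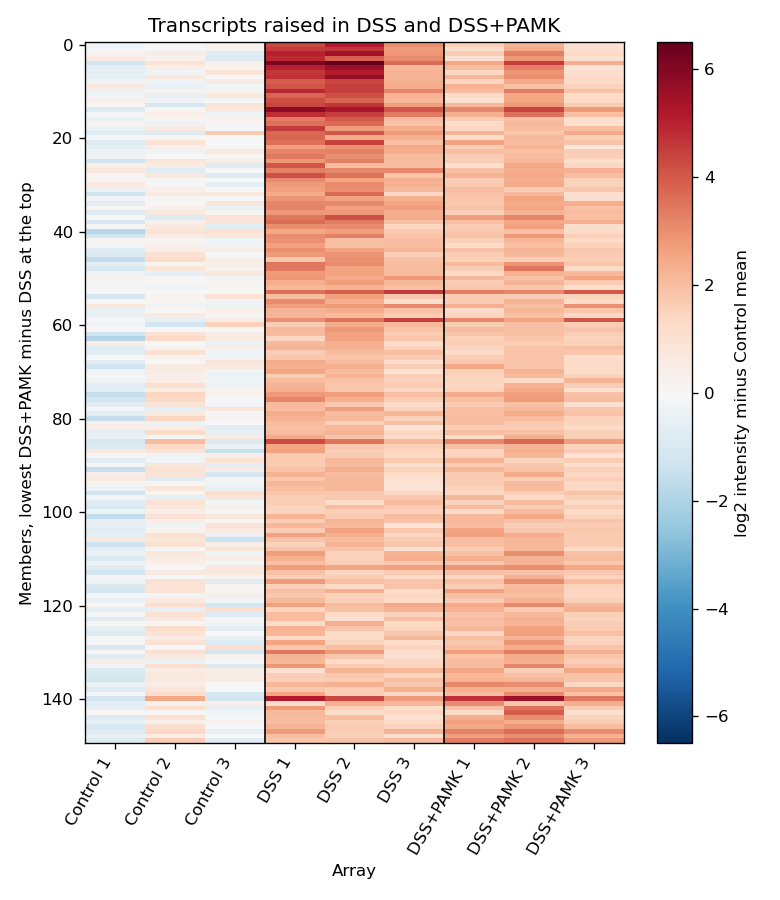
Log2 intensity minus the probe's Control mean (color) for the 150 members (vertical axis, ordered by DSS+PAMK minus DSS) on the 9 arrays (horizontal axis). Members at the top, down to -2.57, are paler in DSS+PAMK than in DSS, and those at the bottom, up to 1.35, are darker.

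Compared with all tested probes the members were dim in Control and more variable. Their median level was 3.59 in Control, 5.89 in DSS and 5.70 in DSS+PAMK, where all tested probes had 5.97, 5.97 and 5.99. The median SD between arrays of a group was 0.72 in Control, 0.51 in DSS and 0.42 in DSS+PAMK among members, against 0.27, 0.30 and 0.21 over all tested probes. Of the members, 15 (10.0%) were well above background on 0 Control arrays, 31 (20.7%) on 1, 36 (24.0%) on 2 and 68 (45.3%) on 3. Over all tested probes these shares were 0.199%, 0.824%, 2.95% and 96.0%. Of the 474 probes raised in DSS with DSS+PAMK under the threshold, the shares were 12%, 12.7%, 12% and 63.3%, and of the 185 raised in DSS+PAMK with DSS under it, 13.5%, 24.9%, 20.5% and 41.1%. Dim Control signal was therefore shared with these probes, and the rules favor it. For the 15 members without such a Control array, the bounds ran from at least 1.74-fold to at least 18.2-fold in DSS and from at least 1.91-fold to at least 5.70-fold in DSS+PAMK. All 150 members passed the filter for testing by construction, since the rule asked for signal in both treated groups.

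Within each group, many members were high or low on the same arrays. Their median deviation from the group mean was -0.47, 0.44 and 0.06 on the Control arrays, 0.28, 0.18 and -0.43 on the DSS arrays, and -0.06, 0.35 and -0.31 on the DSS+PAMK arrays, while over all tested probes it stayed between -0.05 and 0.04. Control replicate 2 was the highest of its group in 89 members (59.3%, against 34.6% of all tested probes), and DSS+PAMK replicate 2 in 109 (72.7%, against 37.7%). DSS replicate 3 was the lowest of its group in 106 members (70.7%, against 27.2%), and DSS+PAMK replicate 3 also in 106 (70.7%, against 37.0%). In each group the array with the largest share of spots well above background, which was Control replicate 1 at 72.2%, DSS replicate 3 at 66.8% and DSS+PAMK replicate 3 at 67.3%, had the lowest member signal. The array brightness also differed between the groups, and its part in the members' differences was not tested. On slide 1, which holds the Control arrays and 1 DSS array, DSS replicate 1 lay above the Control mean by a median of 2.39 over members and -0.01 over all tested probes, and by at least 1.5 in 142 members. That array also entered the rule, so nothing was read from this difference.

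**Figure D5:**
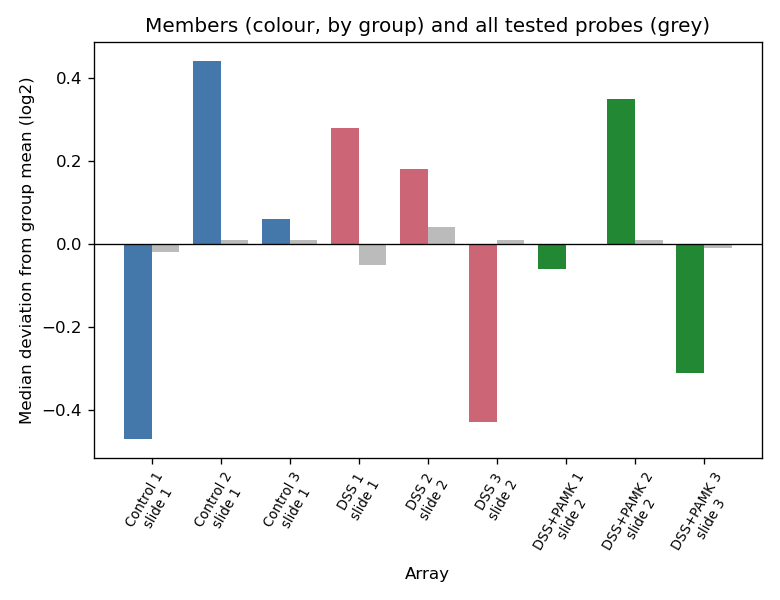
Median deviation from the group mean (vertical axis, log2) of the 150 members (colored bars, by group) and of all tested probes (grey bars) on each of the 9 arrays (horizontal axis, with the slide). The members' bars run from -0.47 on Control replicate 1 to 0.44 on Control replicate 2, while the grey bars stay between -0.05 and 0.04.

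Other genes of the same cell types and pathways were taken from 17 lists with 384 genes, of which 43 had a probe with a symbol and 6 were members. As those symbols come from genes the authors selected on these arrays, the lists' directions are not independent evidence. Of all 179 probes with a symbol, 104 (58.1%) were lower and 30 (16.8%) higher in DSS+PAMK than in DSS at the threshold of the methods, against 1.06% and 0.643% of all tested probes, and their median difference was -1.14. Each list's count was read beside these shares. At the threshold of the methods between DSS+PAMK and DSS, 8 of 15 monocyte and macrophage probes were lower and 0 higher, with a median difference of -1.1. In that list the differences of the non-members ran, as measured, from -4.17 for Marco, a scavenger receptor, to -0.31 for Pla2g7, a phospholipase of macrophages. Marco had means of 1.2 ± 0.00 in Control, 6.41 ± 1.35 in DSS and 2.24 ± 1.68 in DSS+PAMK (SD, n = 3), and only 1 of its DSS+PAMK arrays was well above background. Its difference is therefore not exact, and its place as the largest of the list rests on dim signals. Pla2g7 had 7.29 ± 0.13, 8.68 ± 0.15 and 8.38 ± 0.11 (SD, n = 3), short of the rule's threshold in both groups.

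Among epithelial antimicrobial and oxidase genes, which held Nos2, 7 of 8 probes were lower and 0 higher, with a median of -2.35. Reg3g, an antibacterial lectin, differed by -4.90 and Trim40, the smallest of the list, by -0.93. Of the 4 fibroblast and matrix probes, which held Mmp3, 2 were lower and 0 higher, with a median of -1.77. The non-members ranged from -3.07 for Mmp7, an epithelial metalloproteinase, to -0.52 for Mmp27. Mmp27, which was not well above background in Control, was at least 2.61-fold higher in DSS and at least 1.82-fold higher in DSS+PAMK, and it missed the rule because only 2 of its DSS+PAMK arrays were well above background. Of the 5 probes for chemokines and their receptors, 3 were lower and 0 higher, with a median of -1.38, and of the 6 probes of the Ms4a family, 2 were lower and 0 higher, with a median of -0.69. In the Ms4a family, Ms4a18 differed by -1.41 and Ms4a6c by -0.59. Of the 2 mast cell probes, Cpa3 alone was lower, and the list's median was -0.77.

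The other lists held 0 members. The neutrophil list had Cxcr2 alone, which was not well above background on the Control and DSS+PAMK arrays and was at least 2.32-fold higher in DSS than in DSS+PAMK. It was counted as lower in DSS+PAMK, and the eosinophil list had Alox15 alone, lower with a difference of -1.30. Both cytokine probes, Ifng and Il33, were lower, with a median of -1.52, or -1.34 with Ifng at its bound. Ifng was not well above background on the Control and DSS+PAMK arrays and was at least 2.37-fold higher in DSS than in DSS+PAMK. Of the 3 interferon-inducible probes 2 were lower, with a median of -1.28, and of the 3 probes for natural killer and cytotoxic cells 1 was lower, with a median of -0.55. In that list Nkg7 went the other way, with a difference of 0.76 that did not pass, and means of 14.73 ± 0.06 in Control, 13.61 ± 0.19 in DSS and 14.37 ± 0.48 in DSS+PAMK (SD, n = 3). The smooth muscle list had Asb5 alone, with a difference of -0.24 that did not pass. Both probes of the colonic epithelium, Fcgbp and Slc26a3, were higher, with a median of 1.1. Its summed log2 signal was 14.71, 15.04 and 14.77 in Control, 13.72, 13.61 and 13.70 in DSS, and 15.07, 14.43 and 14.86 in DSS+PAMK. In all of these lists 0 probes passed adjustment with limma. The lists for T cells, for B cells and plasma cells, for dendritic cells and for the cell cycle had 0 probes with a symbol. The part of these cell types in the members' signal was not tested.

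Some members read the same or overlapping sequence. In a search for at least 20 shared bases between a member and any other probe, 10 pairs were found, which held 13 of the members, and 137 members were in no pair. In 3 pairs both probes were members on the same strand. Of these, mclstr_43053_1840_12 and mclstr_119040_382_1014 shared 51 bases and had differences from Control of 2.18 and 1.77 in DSS and of 2.07 and 1.90 in DSS+PAMK. The pair of mclstr_124409_491_1009 and mclstr_42895_497_14 shared 58 bases, with 1.99 and 2.16 in DSS and 1.74 and 1.72 in DSS+PAMK. The pair of mclstr_108742_463_30 and mclstr_121224_389_36 shared 21 bases, with 2 and 1.73 in DSS and 2.37 and 2.05 in DSS+PAMK. Counted once for each such pair, the members stand for 147 target sequences at most. They stand for fewer genes, since the 2 Ccr2 probes, which were in no such pair, read the same gene.

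In 4 pairs the same-strand partner was not a member. The partner of mclstr_121695_432_18 shared 47 bases and had differences of 1.42 in DSS and 1.32 in DSS+PAMK, and the partner of mclstr_32218_1348_16 shared 43 bases and had 1.41 and 1.25. Both lay just under the threshold. The partner of mclstr_98977_282_17 shared 21 bases and had 1.34 and 1.45, and the partner of mclstr_152838_161_12, which shared 20 bases, was not well above background on any array. Opposite strands were read in 3 pairs. Member mclstr_103314_398_11 was the reverse complement over all 60 bases of mclstr_26342_2250_13, which was well above background on all 9 arrays and had means of 8.23 in Control, 9.65 in DSS and 9.44 in DSS+PAMK. The member itself had means of 2.47, 4.18 and 4.22. Signals of different probes are not on a common scale, so the levels of the strands were not compared. For mclstr_42590_921_10 the opposite-strand partner shared 43 bases and was well above background on 1 of the 9 arrays and on 0 Control arrays, and for mclstr_25660_2278_10 it shared 36 bases and was not well above background on any array.

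The members' base composition was described beside that of the other probes. The median share of G and C was 45.0% among members, with a range from 40.0% to 46.7%, and 46.7% over the 86445 tested mclstr probes, with the same range. It was also 45% both in the 474 probes raised in DSS alone and in the 185 raised in DSS+PAMK alone by the same threshold. An open reading frame through the 60 bases was found in 127 members (84.7%), against 80.9% of the tested mclstr probes, 85% of the 474 and 83.8% of the 185. Nothing here was particular to the members.

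Promoter sequence was available for 7 of the 8 named genes in a table of RefSeq promoters on the mouse build GRCm38.p6. Each window held the 250 bases before the start site and a shorter stretch after it. The 7 genes had 9 windows, as Ipcef1 had several. Both strands of the whole windows were searched for 6 motifs, which may overlap. The matches in the 9 windows all lay before the start site, while the shares over all windows also count matches after it. The AP-1 motif TGANTCA was found in 2 of these 9 windows, against 7.81% of all 32851 windows. It lay in Fer1l4 at 25 and in Mmp3 at 46 bases before the start. The TATA motif TATAAA was found in 2 of the 9, against 13.6% of all windows. It lay in Cpa3 at 31 and 242 bases and in Mmp3 at 7 bases before the start. The PU.1 motif GAGGAA was found in 2 of the 9, for Lair1 and Ipcef1, against 28.3% of all windows. The STAT motif TTCNNNGAA, the interferon-stimulated response element (ISRE) and the C/EBP motif TTGCNNCAA were found in 0 of the 9, against 8.30%, 3.44% and 2.08% of all windows. The windows of Mmp3 and Cpa3 are shown because these genes differed between the treated groups at the threshold of the methods. They are cut to the 250 bases before the start site, with the motifs in capitals. A match is only a run of letters. The part shown for Mmp3 was chr9:7445572-7445821 on the plus strand, and that for Cpa3 was chr3:20242182-20242431 on the minus strand.
Mmp3 promoter: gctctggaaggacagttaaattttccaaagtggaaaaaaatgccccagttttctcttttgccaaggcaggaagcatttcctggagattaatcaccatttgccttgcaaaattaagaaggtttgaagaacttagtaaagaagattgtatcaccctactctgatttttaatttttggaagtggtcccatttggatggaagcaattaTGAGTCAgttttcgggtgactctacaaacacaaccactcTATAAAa
Cpa3 promoter: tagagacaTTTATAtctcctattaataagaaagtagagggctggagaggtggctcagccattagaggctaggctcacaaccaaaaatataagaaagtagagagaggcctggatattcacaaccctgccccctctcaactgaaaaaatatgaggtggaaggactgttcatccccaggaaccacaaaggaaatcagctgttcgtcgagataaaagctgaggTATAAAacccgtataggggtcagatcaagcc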

How the data were processed

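Colonic RNA of 9 mice, 3 in each group of the labels (Control, DSS or DSS+PAMK), was hybridized by the authors to 1-color arrays labeled with Cy3. The authors deposited the intensity of each spot from Feature Extraction 10.7.1.1, corrected for background within the array and not normalized between arrays. From this deposited intensity, log2 values were quantile normalized over the 9 arrays as in the methods, without control and outlier spots, and the spots of a probe were averaged. Of the members, 150 had 1 spot, and 0 were saturated. The 99612 of 166924 probes for which all arrays of some group were well above background were tested. The groups were fitted with limma 3.58.1 in R 4.3.3, with 6 residual and 2.5 prior degrees of freedom and Benjamini-Hochberg adjustment over all tested probes. Files were opened using data.table (version 1.17.8).

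The members and lists were chosen with earlier results of these data known. Symbols came from the supplementary sheets. Named were all members with a symbol, the 5 members without one with the largest smaller-of-both difference, the 2 probes on each side of the threshold, and, for lists, the non-members with the largest and smallest difference. Alternatives were a shift to the 75th percentile, a normexp correction, outlier spots kept, thresholds of 1 and 2, other filters, the methods' t-test, slide as a fixed block or, with statmod 1.5.0, a random block, replicate number as a block, slide 2 alone, the treated groups alone in the fit, and each array left out. With 3 arrays per group, their number limits precision.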

Additional observations from a re-analysis of the deposited data

How the results depend on the processing

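The count of 150 members was 66 with a shift to the 75th percentile, 4 with the normexp correction, 551 at a threshold of 1 and 38 at a threshold of 2, and between 125 and 350 with each array left out in turn. The thresholds change the count by construction. For the shift and the correction, the cause was not tested. With outlier spots kept, 149 probes met the rule, and 57 members met it with each array left out in turn. Of these 57, 4 had a symbol, namely Ms4a2, Cpa3, Fer1l4 and Ccr2 mclstr_5131_3337_8. Nos2, Mmp3, Lair1, Ipcef1 and Ccr2 mclstr_39376_385_10 each missed the rule with some array left out.

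The 24 members lower in DSS+PAMK than in DSS at the threshold of the methods were 4 with slide as a fixed block, 4 within slide 2, 6 by the methods' t-test, and between 13 and 33 with each array left out, but 23 with slide as a random block. The cause was not tested. Over all tested probes the share called lower was 1.06% in the fit reported, 1% with the fixed block, 1.07% within slide 2 and 0.538% by the methods' t-test. The 2 higher members were 0 with the normexp correction (0.107% of all tested probes) and 1 without the filter on dim probes (1.08%). They were 8 within slide 2 (1.2%) and between 0 and 3 with each array left out, and the cause was not tested. With the filter on all 9 arrays the count was 0 (0.355%). Neither of the 2 members passed that filter, so neither was tested there. With replicate number as a block there were 24 lower (1.09% of all tested probes) and 2 higher (0.618%). The replicate numbers gave no pairing, since the correlations of equal numbers lay between -0.20 and 0.09. After adjustment 0 members were called under each alternative run. The median difference of -0.15 lay between -0.37 and -0.03 with each array left out, and was -0.42 over the 68 members that passed a filter on all 9 arrays. It was -0.08 with the normexp correction, and 0 both with slide as a fixed block and within slide 2. The latter settings take the difference from the same arrays, since only slide 2 holds both treated groups, and count as 1 check.

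The sign turned for mclstr_5203_1581_5, which was 0.63 with slide as a fixed block, 0.63 within slide 2 and between -0.64 and 0.39 with each array left out. It turned without single arrays for mclstr_46352_1799_10, between -0.15 and 1.07, and for mclstr_98269_437_18, between -0.79 and 0.02, and the cause was not tested. Signal over background limits the 15 members for which 0 Control arrays were well above background, whose differences depend on the background correction and whose folds are bounds. It also limits the 31 members with 1 such Control array and the 36 with 2. Their differences rest partly on dim Control signals and were given as measured.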
